A study of Mus musculus with 117 samples.

Results

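The 10 genes described here (Pecam1, Cdh5, Kdr, Flt1, Tek, Tie1, Emcn, Vwf, Eng and Esam) are widely used as markers of endothelial cells, the lining of blood vessels. They were listed by name as pan-endothelial genes and are 10 of the 17097 genes that the Affymetrix mouse arrays could be read for. Each gene is represented by 1 probe set, a group of short oligonucleotides for 1 transcript: the one annotated to a single gene with the highest mean over 117 arrays. Cdh5 and Eng had 2 such probe sets and Flt1 had 3, and the other genes had 1. The second Cdh5 probe set had a mean log2 signal of 3.14 and a correlation of 0.46 with the one used.

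The study compared cells of normal mouse organs, sorted by their surface Prom1 (prominin-1, a membrane protein used to enrich stem and progenitor cells), with tumours, all on the C57BL/6 strain. Normal tissue was dissociated and cells were separated with magnetic beads against Prom1 into a positive and a negative group in each of 6 tissues, 51 samples in 12 groups. There were 3 Prom1-positive and 5 Prom1-negative samples of prostate, 3 and 7 of lung, 3 and 5 of intestine, 4 and 7 of liver, 3 and 4 of stomach, and 4 and 3 of uterus. The 66 tumours, each a small piece of tissue frozen whole, came from lung (14 bronchial papillary adenomas), liver (13 hepatocellular carcinomas), stomach (11 adenocarcinomas), prostate (10 adenocarcinomas), uterus (9 adenocarcinomas) and skin (6 squamous cell carcinomas), with 3 B-cell lymphomas. The design text speaks of conditional Prom1 mutants that developed tumours, but the labels give no genotype, age, sex or tumour-inducing allele for any sample. Nothing in the labels says that samples came from separate mice, so p-values measure the spread between these samples, which may be partly technical. No group was sorted for endothelial cells: the beads select for Prom1 alone, and every group is a mixture of cell types.

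Endothelial cells are held together by adhesion molecules at their junctions and are kept alive and quiescent by a small set of receptors. VEGF-A, made by surrounding cells, signals through VEGFR2 (Kdr) and is bound more tightly by VEGFR1 (Flt1), and angiopoietins signal through TIE2 (Tek) together with its partner TIE1 (Tie1). Endoglin (Eng) is a co-receptor for BMP and TGF-beta ligands. VE-cadherin (Cdh5) is the classical adherens junction protein of the endothelium, PECAM-1 (CD31) is also found on platelets and leukocytes, and ESAM is a junctional immunoglobulin-family protein also present on platelets. Endomucin (Emcn) is a sialoglycoprotein of capillary and venous endothelium, and von Willebrand factor (Vwf) is the blood-clotting protein stored by endothelium and platelets, usually sparse in liver sinusoids. In bulk samples such as these, more endothelial cells and more RNA per endothelial cell cannot be told apart.

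Sequence of the start regions was at hand for 6 of the 10 genes (Kdr, Flt1, Tek, Tie1, Emcn and Eng), as 250 bases before to 50 bases after the annotated start in RefSeq on GRCm38.p6. Those of Tek, Emcn, Tie1 and Kdr are shown because the endothelial transcription factors Sox18, a SOX protein, and Erg, an ETS protein, were among the 10 genes whose levels over all arrays were most like the mean of the members. Capitals mark matches, on either strand, to CAGGAA or to the variant CCGGAA, which hold the GGAA core bound by ETS factors, or to AACAAT, a SOX motif. A match on the opposite strand stands in the printed line as its reverse complement. The region of Tek lies on the forward strand at chr4:94739039-94739338, Emcn on the forward strand at chr3:137340828-137341127, Tie1 on the reverse strand at chr4:118489800-118490099 and Kdr on the reverse strand at chr5:75978406-75978705.
Tek: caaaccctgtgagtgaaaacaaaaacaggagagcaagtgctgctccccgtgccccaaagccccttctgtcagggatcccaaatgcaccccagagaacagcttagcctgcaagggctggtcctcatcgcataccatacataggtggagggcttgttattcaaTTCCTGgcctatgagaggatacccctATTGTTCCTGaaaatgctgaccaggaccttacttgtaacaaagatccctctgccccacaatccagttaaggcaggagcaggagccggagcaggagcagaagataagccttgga
Emcn: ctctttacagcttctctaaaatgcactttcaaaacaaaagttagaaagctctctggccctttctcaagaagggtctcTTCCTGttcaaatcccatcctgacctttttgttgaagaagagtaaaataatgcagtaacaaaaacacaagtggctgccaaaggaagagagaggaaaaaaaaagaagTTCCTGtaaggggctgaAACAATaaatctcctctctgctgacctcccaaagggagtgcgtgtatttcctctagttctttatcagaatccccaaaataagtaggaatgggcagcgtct
Tie1: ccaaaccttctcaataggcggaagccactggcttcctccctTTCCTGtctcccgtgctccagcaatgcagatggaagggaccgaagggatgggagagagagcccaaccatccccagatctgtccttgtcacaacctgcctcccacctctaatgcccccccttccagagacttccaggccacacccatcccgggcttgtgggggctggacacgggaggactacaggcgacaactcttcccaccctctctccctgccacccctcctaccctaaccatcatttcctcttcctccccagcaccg
Kdr: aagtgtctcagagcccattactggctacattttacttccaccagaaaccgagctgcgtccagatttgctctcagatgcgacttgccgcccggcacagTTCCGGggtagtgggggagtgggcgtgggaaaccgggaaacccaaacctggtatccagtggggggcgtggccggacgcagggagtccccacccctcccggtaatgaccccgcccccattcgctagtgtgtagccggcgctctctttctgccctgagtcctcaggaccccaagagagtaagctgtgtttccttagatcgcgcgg
CAGGAA was present in 4 of the 6 regions (Tek, Tie1, Emcn and Eng) against 30.6% of 32851 RefSeq start regions of this length. CCGGAA was present in 1 of 6 (Kdr) against 14.9%, and AACAAT in 2 of 6 (Tek and Emcn) against 10.7%. In Tek the AACAAT match overlaps one of the pair of CAGGAA matches. These are matches of letters, not measured binding, and 6 regions are too few for the shares to be compared. The 6 regions ranged from 41% G and C bases in Emcn to 70.7% in Flt1.

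Values are the authors' log2 signals, on which a difference of 1 is a doubling. The 117 arrays had medians from 3.63 to 4.01 and upper quartiles from 5.05 to 6.53. A gene near its array's median cannot be told from background. A few libraries stood apart. Of the Prom1-negative stomach samples, a pair share title number 2. An array of that pair had the highest array median, 4.01, and the lowest upper quartile, 5.05. Its mean of the 10 genes, 4.4, lay within its group's range of 3.62 to 4.64. The lowest correlation between arrays of that group was 0.694, against 0.849 in the next lowest group, Prom1-positive liver. Prom1-negative lung sample 7 had a mean of the 10 genes of 6.26, against 9.47 to 10.05 in the other 6. The mean of the members was 9.75 in Prom1-positive liver sample 2, against 5.74 to 6.73 in the other 3. Prom1-negative prostate sample 1 was at 5.05, against 7.28 to 7.69. Uterine adenocarcinoma sample 6 carried liver transcripts, with a hepatocyte-list mean of 10.81 against 3.63 to 5.28 in the other 8 tumours, while its endothelial mean was 6.19.

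Sorted lung cells and Prom1-negative liver cells had the highest endothelial transcript levels, and intestine and stomach the lowest. Mean log2 signal over the 10 genes was 9.28 ± 1.35 (SD, n = 7) in Prom1-negative lung, 9.18 ± 1.46 (n = 3) in Prom1-positive lung and 9.08 ± 0.51 (n = 7) in Prom1-negative liver. The next level down was bronchial adenoma, at 7.33 ± 0.62 (n = 14), followed by Prom1-positive liver at 7.17 ± 1.77 (n = 4) and Prom1-negative prostate at 7.01 ± 1.11 (n = 5). Uterine adenocarcinoma was at 6.71 ± 0.61 (n = 9), hepatocellular carcinoma at 6.39 ± 0.48 (n = 13), Prom1-negative uterus at 6.38 ± 0.92 (n = 3) and skin carcinoma at 6.25 ± 1.02 (n = 6). Gastric adenocarcinoma stood at 5.90 ± 0.54 (n = 11), prostatic adenocarcinoma at 5.84 ± 0.56 (n = 10), Prom1-positive uterus at 5.65 ± 0.52 (n = 4), lymphoma at 5.51 ± 0.40 (n = 3) and Prom1-positive prostate at 4.88 ± 0.18 (n = 3). The bottom of the order was Prom1-positive stomach at 4.37 ± 0.53 (n = 3), Prom1-negative stomach at 4.10 ± 0.49 (n = 4), Prom1-positive intestine at 3.73 ± 0.03 (n = 3) and Prom1-negative intestine at 3.53 ± 0.11 (n = 5). In the 8 intestine samples 2 to 6 of the 10 genes were above the array median, so most members there were at background.

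**Figure D1:**
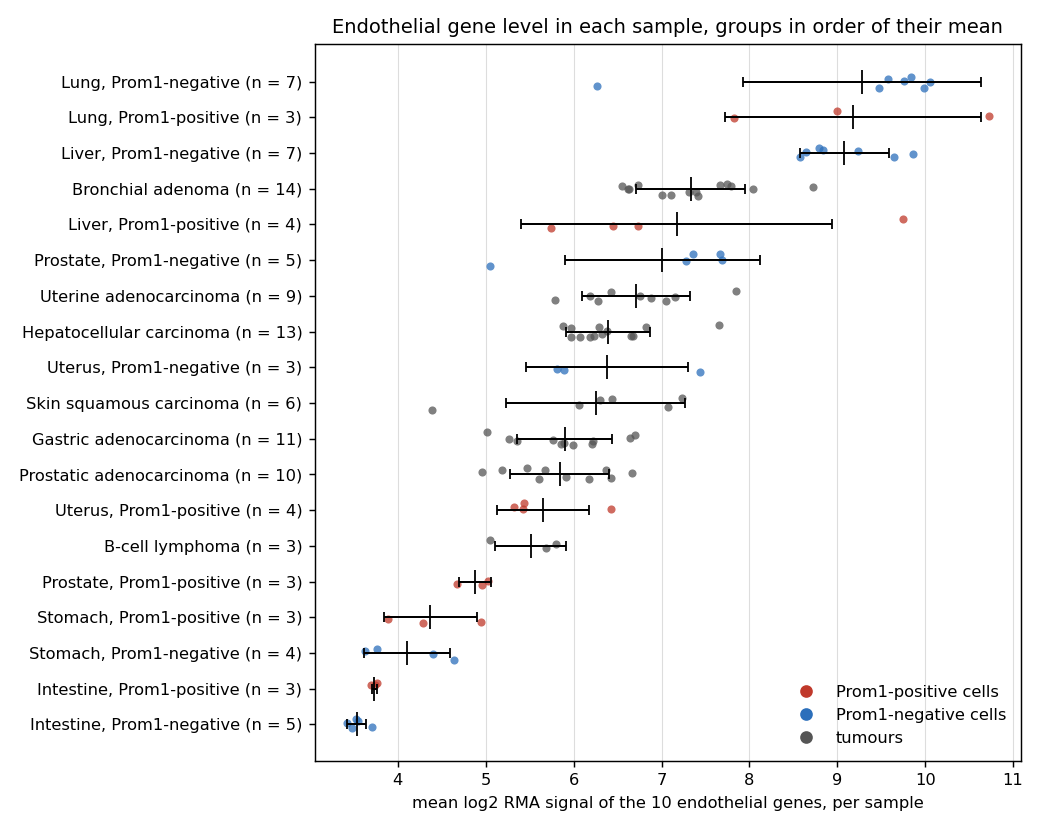
Mean log2 signal of the 10 endothelial genes in each of the 117 samples (points; x axis), with the 19 groups in order of their mean (y axis) and the group mean and SD as a black bar. Lung and Prom1-negative liver lie highest, intestine lies lowest near background, and Prom1-negative lung sample 7, Prom1-positive liver sample 2 and Prom1-negative prostate sample 1 lie away from their groups.

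Neighbouring groups in a gene's order mostly overlapped, which is likely for groups placed by their means. Of the 18 pairs of neighbouring groups in each gene's order, 16 (Vwf) to 18 (Pecam1, Kdr, Tie1, Emcn and Eng) overlapped in the range of their samples. The share over all genes was not computed. The steps were uneven: the mean of the members fell from 9.08 in Prom1-negative liver to 7.33 in bronchial adenoma, the next group. Prom1-negative lung was the highest group for Pecam1, Flt1, Tek and Vwf, Prom1-positive lung for Cdh5, and Prom1-negative liver for Kdr, Tie1, Emcn, Eng and Esam. From the lowest to the highest group mean the genes spanned 4.36 (Tie1) to 7.63 (Kdr) log2 units. Vwf was the member whose order departed most from the rest: it averaged 10.37 ± 1.24 in Prom1-negative lung but 6.86 ± 1.15 in Prom1-negative liver, where Kdr was 11.32 ± 0.50 against 9.95 ± 1.51 in lung.

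**Figure D2:**
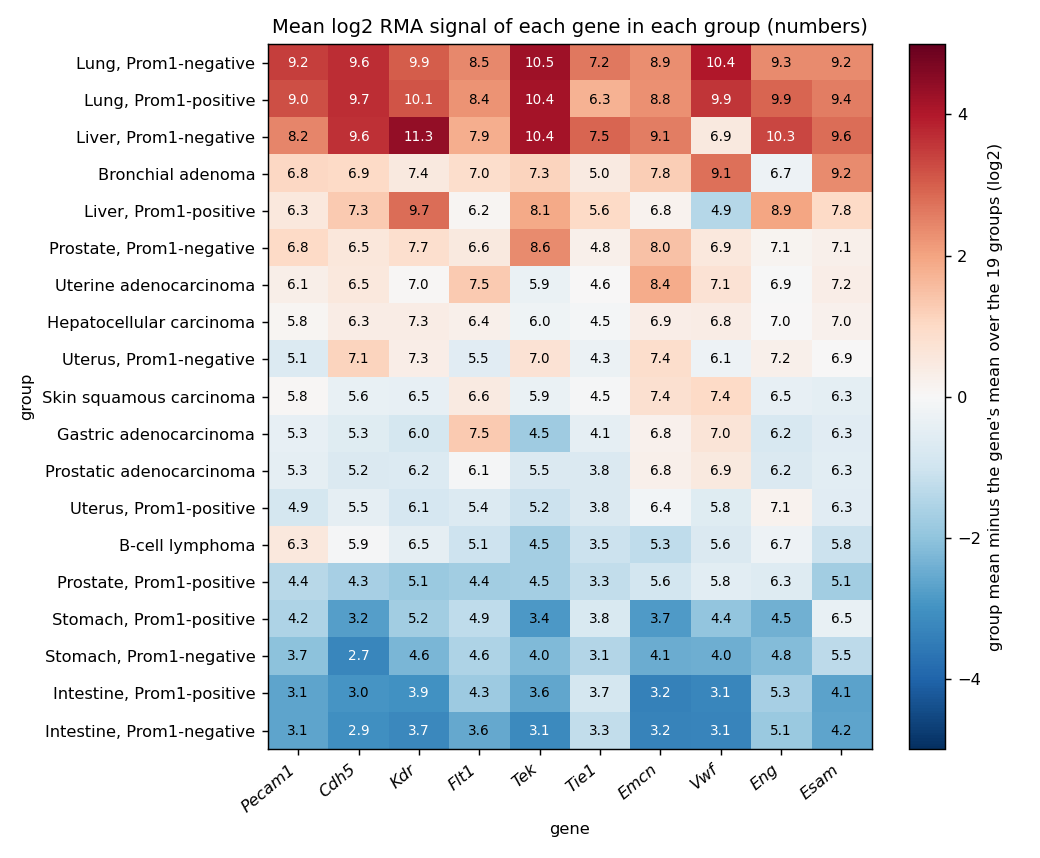
Mean log2 signal of each of the 10 genes (columns) in each of the 19 groups (rows), printed in the cells. Colour is the difference of a group mean from that gene's own mean over the 19 groups, so colours compare groups within a gene and not genes with each other. Kdr is at 11.3 and Vwf at 6.9 in Prom1-negative liver, where the other genes are also high.

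The first comparison asks how the normal tissues differ, taking the mean of both sorted groups of a tissue against the mean of the other 5 tissues. All 10 genes were higher in lung, by 2.44 (Tie1) to 5.07 (Vwf) log2 units, where 24.8% of all genes tested were called higher. Tek was 4.64 higher (SE 0.39) and Cdh5 4.45 higher (SE 0.37), with adjusted p of 9.17e-14 and 7.63e-14 (limma, Benjamini-Hochberg). In liver 9 of 10 were higher, against 21.3% of all genes: Kdr by 4.16, Tek by 3.25, Cdh5 by 3.01 and Eng by 2.96, the other 5 by 1.46 (Flt1) to 2.30 (Esam). Vwf did not pass in liver, with a difference of -0.05 and an adjusted p of 0.923 (limma, Benjamini-Hochberg; 95% interval -0.83 to 0.74). All 10 were lower in intestine, from -1.46 (Tie1) to -3.91 (Kdr), and in stomach, from -0.97 (Esam) to -3.60 (Cdh5). The background was 27.7% of genes lower in intestine and 31.4% in stomach. Leaving out the 6 arrays with an upper quartile under 6 raised the adjusted p of Esam in stomach from 0.042 to 0.279, the highest of a range from 0.00311 over its alternatives.

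No member was called in prostate or uterus, where 39.9% and 47.8% of genes were called in either direction. At an unadjusted p under 0.05 the counts were 1 of 10 in prostate and 1 of 10 in uterus. The moderated F test over tissues called all 10 genes, as it did 90.1% of all genes. Without Prom1-negative lung sample 7 there were 3 called in prostate and 2 in uterus. With the Prom1-negative cells alone Tek moved from -0.01 to 1.61 in prostate, with an adjusted p of 0.00584 (limma, Benjamini-Hochberg).

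Other endothelial genes were distributed in the same way, by count. Of 19 tested transcription factors of endothelium 18 were higher in lung, led by Epas1 (HIF-2 alpha) at 3.40 and Sox18 at 3.37, and 17 were lower in intestine, led by Klf2, the flow-responsive factor, at -3.99. Of 24 further endothelial surface genes 20 were higher in lung (the tight junction gene Cldn5 at 5.17, Cav1 at 4.87) and 21 were lower in intestine (Cav1 at -5.07, thrombomodulin Thbd at -4.86). Of 13 receptors that partner the members, such as neuropilins, Ptprb, Notch4 and Acvrl1, 12 were higher in lung. Aplnr, the apelin receptor, rose by 5.46 there, Ptprb, the phosphatase that restrains TIE2, by 4.48 and Acvrl1, the BMP9 receptor that acts with endoglin, by 4.26. Tissue-specific endothelium was visible as well. In liver 7 of 8 sinusoidal genes were higher (Clec4g by 8.45, Stab2 by 7.37), and in lung 7 of 7 capillary genes (Car4 by 5.26) and 6 of 6 arterial genes (Sema3g by 5.32) were higher. Blood-borne cells moved too: all 8 leukocyte genes and 9 of 9 platelet genes were higher in lung, with a leukocyte-list mean of 8.80 to 11.72 in its 10 samples, and 7 of 10 fibroblast genes were higher while 9 of 10 epithelial genes were lower. In liver 10 of 12 macrophage genes were higher (list mean 10.68 in Prom1-negative cells) and 2 of 8 leukocyte genes. In stomach all 8 leukocyte, all 12 macrophage and all 10 fibroblast genes were lower, and 7 of 10 epithelial genes were higher. In intestine 5 of 8 leukocyte, 10 of 12 macrophage and 9 of 10 fibroblast genes were lower, and 8 of 10 epithelial genes were higher. The part of these cell types in the tissue differences was not tested.

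The sort comparison asks whether Prom1-positive cells differ from Prom1-negative cells of the same tissue. Endothelial transcripts were lower in Prom1-positive cells of prostate and liver, and no member was called in lung, intestine, stomach or uterus. The main fit called 5 members in prostate and 8 in liver. With neighbouring sample codes as a block, a pairing that the labels do not state, the counts were 9 in prostate, 10 in liver and 2 in uterus. A block by title number gave 2 in prostate, and repeated quantile normalization gave 3 in liver. Shares of all genes called were worked out for the main fits only, so counts under alternatives have none beside them. All 10 members were lower in each of the 3 prostate and 3 liver pairs of neighbouring codes. Prom1-positive liver sample 2 and Prom1-negative prostate sample 1, which lie towards the other group, have no neighbour and are in none of these pairs. In the lung pairs 0, 10 and 9 members were lower, in the uterus pairs 6, 7 and 10, and in the stomach pair 3. Prom1 itself was higher in every positive than in every negative sample of prostate, stomach and uterus. Its groups overlapped in lung (6.55 to 6.57 positive, 5.92 to 7.37 negative) and intestine (7.88 to 10.07 positive, 8.09 to 9.70 negative), and in liver it was at 2.56 to 4.14 in positive and 2.53 to 3.41 in negative cells, so the array gives no check of the sort in these 3 tissues. In prostate 5 of 10 genes were lower, where 5.98% of all genes were: Tek, Kdr, Pecam1, Flt1 and Cdh5. The median difference of the 10 was -2.22, against 0.10 over all genes.

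Tek, the angiopoietin receptor, had the largest difference in prostate. It was at 6.93, 8.84, 9.06, 9.16 and 8.92 in the 5 Prom1-negative samples and at 4.48, 4.32 and 4.73 in the 3 Prom1-positive samples. Every Prom1-positive sample lay below every Prom1-negative sample, sample 1 included. The share of all genes without overlap was not computed, here or in the other comparisons. The difference was -4.08 (SE 0.74) with an adjusted p of 9.45e-05 (limma, Benjamini-Hochberg), and Tek stayed called under all 48 alternatives, at adjusted p from 3.27e-06 to 0.0017. Of these alternatives 38 left out 1 sample, mostly of other tissues, which does not enter the prostate difference. Kdr, the VEGF-A receptor, was at 5.94, 8.25, 8.02, 8.34 and 8.17 in Prom1-negative and 5.31, 4.97 and 4.91 in Prom1-positive prostate. Its groups did not overlap either, and it differed by -2.68 (SE 0.72) at an adjusted p of 0.0107 (limma, Benjamini-Hochberg). Pecam1 was at 5.14, 7.57, 6.38, 7.60 and 7.09 against 4.09, 4.63 and 4.43, again without overlap, and differed by -2.38 (SE 0.69, adjusted p 0.0207).

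VE-cadherin (Cdh5) ran from 3.68 to 7.52 in Prom1-negative and was at 4.02, 4.48 and 4.34 in Prom1-positive prostate. Prom1-negative sample 1 lay below all 3 positive samples, so the groups overlapped, and the difference was -2.22 (SE 0.70, adjusted p 0.0373 by limma with Benjamini-Hochberg). With the mean of its probe sets Cdh5 was not called (adjusted p 0.29 by the same test). Flt1 was at 4.41, 7.51, 7.01, 6.99 and 7.18 against 5.10, 3.81 and 4.27, with Prom1-negative sample 1 among the positive samples, and differed by -2.23 (SE 0.62, adjusted p 0.0146). Emcn did not pass, at -2.39 (SE 0.84, adjusted p 0.0654), although its groups did not overlap. Esam differed by -1.96 (adjusted p 0.0775), Tie1 by -1.5 (0.231), Vwf by -1.05 (0.522) and Eng by -0.80 (0.528), and none passed. With 3 positive samples the count was sensitive: it was 1 without Prom1-positive sample 2, 2 without sample 3, 3 without sample 1, 3 without Prom1-negative sample 2 or 4, and 7 without Prom1-negative sample 1.

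Other endothelial genes of prostate went the same way. Of 24 surface genes 8 were lower and none higher, among them the progenitor and capillary antigen Cd34 (-3.94), Gpihbp1, the capillary anchor of lipoprotein lipase (-3.68), Cldn5 (-3.50) and Thbd (-3.27). Of 19 transcription factors 4 were lower (Ets1 -2.63, Sox17 -2.61, Epas1 -2.39 and Sox18 -2.19). Of 13 partner receptors 2 were lower, Acvrl1 (-1.86) and the sphingosine receptor S1pr1 (-1.65), and 3 of 9 ligands were lower: Vegfd (-4.39), Angpt4 (-3.40) and placental growth factor Pgf (-1.97). Fibroblast genes fell with them: 7 of 10 were lower (median -3.22), and the fibroblast-list mean was 5.50 to 7.58 in the 3 positive and 8.41 to 9.67 in the 5 negative samples. Red cell transcripts were also lower: 3 of 5 erythroid genes passed (median -5.66), and the erythroid-list mean was 4.52 to 5.19 in the positive and 8.24 to 9.33 in the negative samples, without overlap. None of 8 leukocyte genes was called, and all 10 epithelial genes had differences above 0, of which Elf3 (1.45) passed. The part of fibroblast, red cell and epithelial content in the endothelial result was not tested.

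In liver 8 of 10 genes were lower in Prom1-positive cells, where 16.5% of all genes were, with a median of -1.90 against -0.12 over all genes. Cdh5 was at 9.29 to 9.97 (median 9.60) in the 7 negative samples and at 9.56, 7.01, 5.89 and 6.65 in the 4 positive samples, numbered 2 to 5 in the titles. Positive sample 2 lay within the negative range and the other 3 below it. For all 10 genes sample 2 lay above the lowest negative sample, and for 9 genes the other 3 lay below every negative sample, Vwf being the exception, so every gene's groups overlapped. Cdh5 differed by -2.34 (SE 0.60, adjusted p 0.00407) and was called under all 48 alternatives (adjusted p 8.92e-05 to 0.0484, limma with Benjamini-Hochberg). Most of these left out a sample of another tissue, and none left out a Prom1-negative liver sample. Emcn was at 8.38 to 9.78 (median 9.21) against 10.14, 5.71, 4.82 and 6.32, and differed by -2.36 (SE 0.72, adjusted p 0.0152). Tek, at -2.23 (SE 0.63), had an adjusted p of 0.00909.

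The remaining called genes of liver were Pecam1 (-1.93), Vwf (-1.91), Tie1 (-1.89), Esam (-1.82) and Flt1 (-1.69), and Kdr (-1.62, adjusted p 0.0562) and Eng (-1.37, adjusted p 0.0604) did not pass. The spread was unequal, with an SD of the mean of the members of 1.77 in positive and 0.51 in negative liver, while the fit uses 1 spread for all groups. In a fit of liver alone 3 genes were called, and 3 with quantile normalization repeated. The upper quartiles of the 4 positive arrays, 5.96 to 6.02, lay below those of the 7 negative arrays, 6.08 to 6.41. The part of this array difference in the liver result was not tested. Leaving out positive sample 2 gave 10, sample 3 gave 2, sample 4 gave 1 and sample 5 gave 2.

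Blood and immune genes moved with the endothelial genes of liver. All 8 leukocyte genes were lower in Prom1-positive liver (median -2.95), with list means of 5.94 to 8.97 against 9.54 to 10.72, and 11 of 12 macrophage genes were lower (median -2.52). The hepatocyte list did not pass for any of its 10 genes (median 0.19), and its mean was 11.45 to 12.75 in positive and 10.90 to 12.66 in negative samples. Positive sample 2, the one with high endothelial genes, had the lowest hepatocyte and the highest leukocyte mean of the 4. Of 8 sinusoidal genes 6 were lower, among them the hyaluronan receptor Lyve1 (-2.06), coagulation factor F8 (-2.02), Oit3 (-1.91) and Dnase1l3 (-1.57). Of 19 transcription factors 12 were lower, led by Fli1 (-3.44), Klf4 (-2.52), Elk3 (-2.25) and Klf2 (-2.17), and Fli1 is also expressed by blood cells. Of 24 surface genes 13 were lower and of 13 partner receptors 6, with Acvrl1 at -2.48 and Nrp2 at -2.13. The part of leukocyte content in these differences was not tested.

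**Figure D3:**
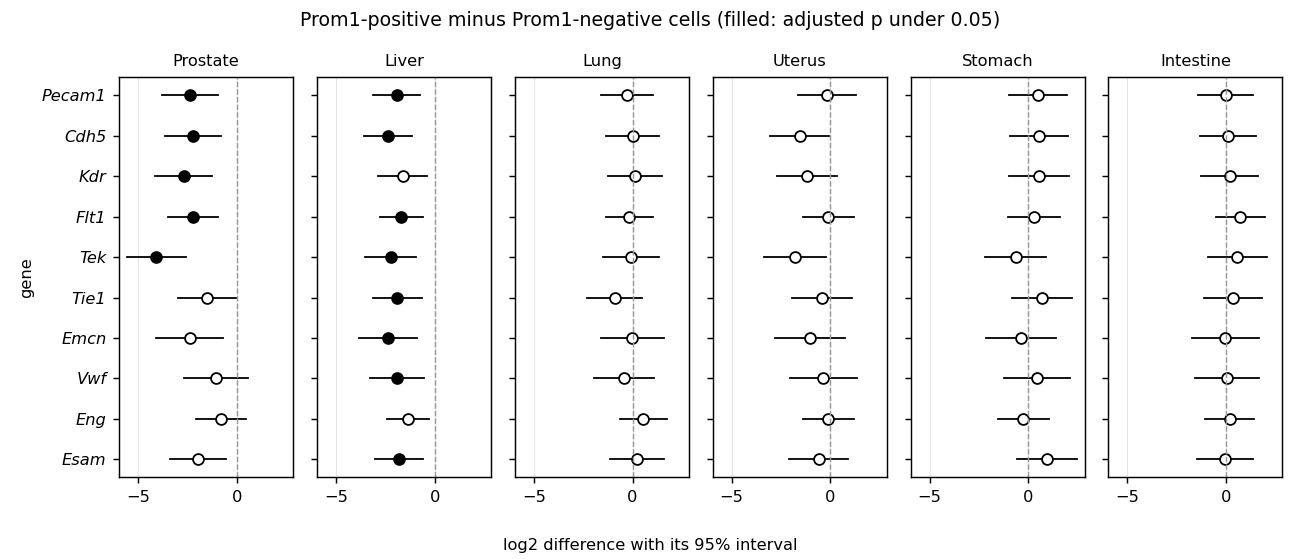
Log2 difference, Prom1-positive minus Prom1-negative cells, for each gene (y axis) in the 6 tissues, with its 95% interval, filled where the limma adjusted p was under 0.05. Filled points occur in prostate (5 genes) and liver (8 genes), all to the left of 0.

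The remaining tissues showed no called member. In lung the differences ran from -0.91 (Tie1) to 0.55 (Eng), where 1.51% of all genes were called, and 0 of 10 had an unadjusted p under 0.05. The 3 positive lung samples were spread out, at 10.72, 7.82 and 9.0 for the mean of the members. Tek in lung differed by -0.08, with a 95% interval from -1.48 to 1.33. In uterus 10.9% of genes were called and 2 members, Cdh5 and Tek, had an unadjusted p under 0.05. Cdh5 was at 6.91, 7.26 and 7.0 in the 3 negative and 5.48, 5.18, 5.36 and 5.94 in the 4 positive uterus samples, without overlap. It differed by -1.56 (95% interval -3.05 to -0.08, adjusted p 0.204). Tek differed by -1.79 (adjusted p 0.151) and Kdr by -1.18 (adjusted p 0.431), also without overlap. The fit of uterus alone called 3 members, and the block on neighbouring codes called 2, Cdh5 and Tek. Shares of all genes for these fits were not computed. Macrophage genes went the other way, with 8 of 12 higher in Prom1-positive uterus (median 3.36). In stomach (3.17% of genes called) and intestine (0.199% called) no member had an unadjusted p under 0.05, and limma with robust, trended variance also called 0 members in lung, intestine, stomach and uterus. Most members were near background in intestine, and Cdh5, Tie1 and Emcn were below the array median in most stomach samples.

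**Figure D4:**
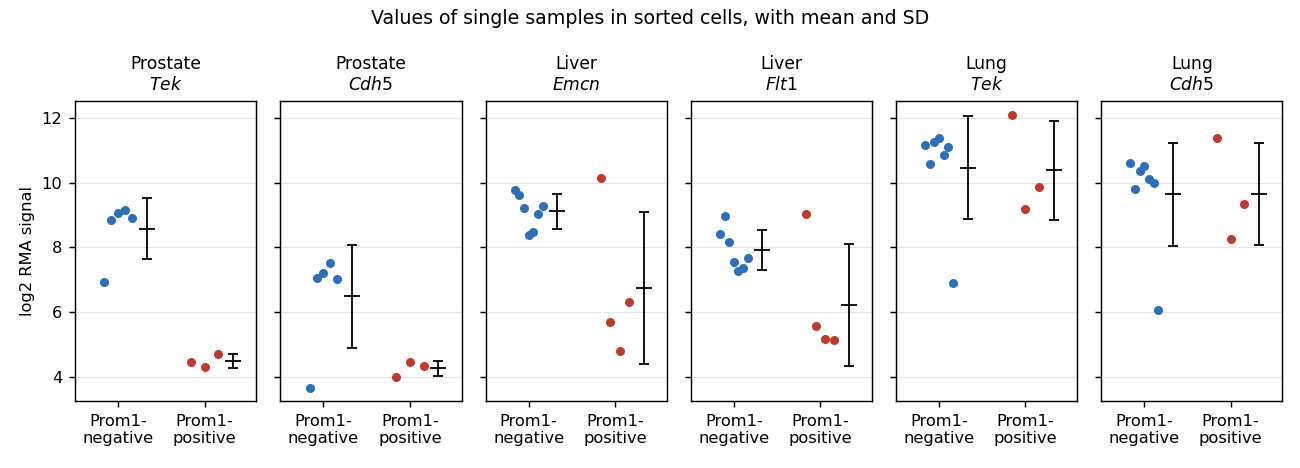
Log2 signal by sample, with mean and SD, of Tek and Cdh5 in prostate, Emcn and Flt1 in liver and Tek and Cdh5 in lung, for Prom1-negative and Prom1-positive cells. Tek separates the 2 prostate groups, at 6.93 to 9.16 against 4.32 to 4.73, and in liver positive sample 2 lies with the negative samples.

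Averaged over the 6 tissues, all 10 differences were below 0, from -0.30 to -1.38, and 3 were called lower: Tek (-1.38, SE 0.30, adjusted p 0.00106), Emcn (-1.03, SE 0.34, adjusted p 0.0336) and Cdh5 (-0.91, SE 0.28, adjusted p 0.0248). The background was 8.56% of genes lower. With the mean of its probe sets Cdh5 was not called in this average (limma adjusted p 0.0873). The count was 8 with the block on neighbouring codes, 1 without Prom1-positive lung sample 2, 8 without Prom1-positive liver sample 2, 6 without Prom1-negative lung sample 7 or Prom1-positive lung sample 1, and 5 without Prom1-negative prostate sample 1. Tek was called under all 47 alternatives of this average. The test of whether the sort difference varies between tissues passed for 3 members, Tek (adjusted p 0.00646), Flt1 (0.0364) and Cdh5 (0.0453), where it passed for 21.2% of all genes (limma moderated F, Benjamini-Hochberg). That count ranged from 1 to 9 when single samples were left out, with 9 reached without Prom1-positive liver sample 2. Tek was called under all 47 alternatives of the test of variation too, and Cdh5 under 13.

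The tumour comparison sets each tumour type against the mean of the sorted normal groups of its organ. Whole frozen tumours are compared with dissociated, sorted cells, so the tumour state and the preparation cannot be told apart. The 5 organ comparisons do not share normal samples with each other, but the lung, liver, prostate, stomach and uterus normals are those of the sort comparison. Endothelial genes were lower in the tumours of lung and liver, the 2 organs with the highest normal level, and higher in the tumours of stomach, which had one of the lowest.

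In bronchial adenoma 8 of 10 genes were lower than in sorted lung cells, where 19.7% of all genes were. Tek differed by -3.07 (SE 0.42, adjusted p 9.36e-10), Eng by -2.89 (SE 0.31, adjusted p 7.33e-14), Cdh5 by -2.72, Kdr by -2.61 and Pecam1 by -2.29. Tek was at 6.04 to 9.75 (median 7.18) in the 14 adenomas, at 6.92 to 11.37 (median 11.08) in the 7 Prom1-negative and at 9.18, 9.87 and 12.09 in the 3 Prom1-positive lung samples. The ranges overlapped, through Prom1-negative sample 7, Prom1-positive sample 2 and the highest adenomas. Tie1 differed by -1.73, Flt1 by -1.43 and Emcn by -1.08 (adjusted p 0.0326). Vwf (-1.02, adjusted p 0.0729) and Esam (-0.10, adjusted p 0.854, 95% interval -0.78 to 0.58) did not pass. Esam had the smallest difference of the members: it averaged 9.18 ± 0.45 in the 14 adenomas and 9.17 ± 1.46 in Prom1-negative lung. Its medians there were 9.39 and 9.72, and Prom1-negative sample 7 was at 5.95.

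The wider endothelial set fell with them: 21 of 24 surface genes, 15 of 20 transcription factors and 10 of 13 partner receptors were lower, among them Selp (P-selectin, -3.52), Cldn5 (-3.15), Sox7 (-2.85) and Acvrl1 (-2.94). Of 7 lung capillary genes 5 were lower, led by the endothelin receptor Ednrb (-3.36). Vegfa did not pass (0.24, adjusted p 0.666) and Angpt2 was lower (-1.58). Other cells moved as well, with 9 of 10 epithelial genes higher (median 3.35), 8 of 10 fibroblast genes lower (median -2.14) and 8 of 8 leukocyte genes lower (median -1.04). Their part in the endothelial result was not tested.

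In hepatocellular carcinoma 8 of 10 genes were lower than in sorted liver cells, where 18% of genes were. Kdr differed by -3.24 (SE 0.34, adjusted p 8.28e-14), Tek by -3.24 (SE 0.40, adjusted p 7.38e-11) and Eng by -2.65 (SE 0.30, adjusted p 1.27e-12). Cdh5 (-2.14), Tie1 (-2.06), Esam (-1.69), Pecam1 (-1.41) and Emcn (-1.04, adjusted p 0.0296) were lower by less, and Flt1 (-0.71, adjusted p 0.0599) did not pass. Vwf had the opposite sign, 0.85 (adjusted p 0.118). Kdr ran from 6.57 to 8.19 (median 7.23) in the 13 carcinomas and from 10.66 to 11.90 (median 11.04) in Prom1-negative liver, and was at 12.17, 9.49, 8.07 and 9.07 in Prom1-positive liver. Only Prom1-positive sample 4 came within the carcinoma range.

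The choice of normal cells mattered in liver. With Prom1-positive cells as the normal, 4 genes were lower and Emcn turned from -1.04 to 0.14 (limma adjusted p 0.872, against a lowest of 4e-05 over its alternatives). The share of all genes lower under this reference was not computed. The sinusoidal genes fell most, 7 of 8 lower with a median of -4.07 (Dnase1l3 -5.51, Clec4g -4.94, Oit3 -4.61, F8 -4.12). Of 24 surface genes 13 were lower and 5 higher, where 29.2% of all genes were higher. The tip cell gene Esm1 led the higher ones, at 3.79. Ptprb (-3.22), Nrp2 (-2.5) and Acvrl1 (-1.63) were lower while Vegfa (1.13) and Vegfc (1.38) were higher. Hepatocyte genes did not pass for any of 10 (median 0.11), and 8 of 12 macrophage genes were lower.

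In gastric adenocarcinoma 7 of 10 genes were higher than in sorted stomach cells, where 35% of all genes were. Emcn was higher by 2.90 (SE 0.48, adjusted p 1.45e-07), Vwf by 2.85 (SE 0.53, adjusted p 2.51e-06), Flt1 by 2.73 (SE 0.37, adjusted p 7.28e-10) and Cdh5 by 2.40 (SE 0.43, adjusted p 1.03e-06). Flt1 ran from 6.89 to 8.08 (median 7.59) in the 11 tumours. It was at 4.33, 4.86, 4.18 and 4.97 in Prom1-negative and at 4.48, 4.41 and 5.71 in Prom1-positive stomach. The tumours lay above every normal sample for Flt1, and also for Cdh5, Emcn and Vwf. The share of all genes separated in this way was not computed. Eng (1.51), Pecam1 (1.36) and Kdr (1.14) passed with overlap, and Tek (0.77, adjusted p 0.149), Tie1 (0.67, 0.116) and Esam (0.28, 0.544) did not. Cdh5 had been below the array median in all 7 normal stomach samples, so its normal level there is a background value.

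Of 9 ligands 4 were higher and 2 lower in gastric adenocarcinoma, where 35% of all genes were higher and 23% lower. Vegfa was higher by 2.74, Vegfc by 2.62, Pgf by 2.27 and Angpt2, the angiopoietin of remodelling vessels, by 1.47, while Angpt1 (-0.63) was among the lower ones. Of 13 partner receptors 8 were higher (Nrp2 4.09, Aplnr 3.74, Nrp1 3.46, Ptprb 2.63). Surface genes were higher in 17 of 24 (Podxl 4.73, Gpihbp1 3.67) and transcription factors in 13 of 20 (Elk3 4.53, Ets1 3.99). Stromal and immune genes were higher too, all 8 leukocyte genes (median 2.79), 11 of 12 macrophage genes (median 2.90) and 7 of 10 fibroblast genes (median 3.92). The part of this broader change in the endothelial result was not tested.

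Uterus and prostate had the fewest called members of the 5 organs. In uterine adenocarcinoma 2 genes were higher, against 16.4% of all genes: Flt1 by 1.96 (SE 0.39, adjusted p 3.39e-05) and Emcn by 1.49 (SE 0.50, adjusted p 0.0156). Flt1 ran from 6.23 to 8.29 (median 7.61) in the 9 tumours, against 5.0, 4.82 and 6.80 in Prom1-negative and 6.00, 5.32, 4.5 and 5.96 in Prom1-positive uterus. Prom1-negative sample 3 was the only normal sample within the tumour range. Leaving it out gave 4 genes, and leaving out Prom1-negative sample 1 or 2 gave 1. Pgf (1.08) and Angpt2 (1.12) were higher and Nrp1 (-1.46) lower.

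In prostatic adenocarcinoma no gene was called, while 36.7% of all genes were, and 1 gene (Tek, -1.02, adjusted p 0.0726) had an unadjusted p under 0.05. The result turned on which sorted group stood for normal prostate. Against Prom1-negative cells 4 genes were called, Tek (-3.06), Kdr (-1.52), Pecam1 (-1.45) and Cdh5 (-1.28), all lower. Against Prom1-positive cells 1 was called, Flt1, at 1.67 higher. The shares of all genes called against each reference were not computed. Without Prom1-negative prostate sample 1 or Prom1-negative lung sample 7 the count was 1.

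The test of variation between the 5 organs passed for all 10 members, as it did for 77.9% of all genes. It was added after the values had been seen. Averaged over organs 8 of 10 passed, where 65.8% of all genes did. Vwf (0.86), Flt1 (0.62) and Emcn (0.46) were higher, and Tek (-1.34), Eng (-0.95), Kdr (-0.92), Tie1 (-0.56) and Cdh5 (-0.49) were lower. Since organs differ in sign, this mean describes none of them. It was sensitive to the reference and the probe set: Cdh5 turned to 0.07 with Prom1-positive cells as the normal, Emcn to -0.16 with Prom1-negative cells, and Flt1 to -0.31 with the probe set of highest variance.

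The last comparison is among tumours alone, which were all prepared alike, each type against the mean of the other 6. The F test over types passed for all 10 genes, as it did for 95.1% of genes. Eng did not pass it with its probe set of highest variance (adjusted p 0.215, limma moderated F). Bronchial adenoma had the highest mean of the members, and 9 of 10 genes were higher, against 23.9% of all genes. By group mean it was not the highest type for Emcn (7.79, uterine adenocarcinoma 8.41), Flt1 or Eng. Esam led, at 8.51 to 9.66 (median 9.39) in the 14 adenomas, against means of 5.75 to 7.17 in the other types, and was 2.71 higher (SE 0.18, adjusted p 5.16e-20). Vwf (2.35, SE 0.33, adjusted p 8.69e-09) and Tek (1.96, SE 0.28, adjusted p 1.32e-08) followed, then Cdh5 (1.12), Pecam1 (1.03), Emcn (0.86), Tie1 (0.86), Kdr (0.82) and Flt1 (0.52). Eng did not pass (0.13, adjusted p 0.549). Of 24 surface genes 15 were higher (Clec14a 2.13, Cldn5 1.84) and of 13 partner receptors 7 (Nrp1 2.26, Ptprb 1.88, Acvrl1 1.5). Of 19 transcription factors 7 were higher, led by Epas1 (2.33), and Vegfa was higher by 1.13. Car4, a lung capillary gene, was higher by 5.72. Of other cell types, 4 of 8 leukocyte genes were higher (list mean 9.39, against 7.75 to 8.67 in the other non-lymphoma types), 8 of 10 epithelial genes were higher and 7 of 10 fibroblast genes were lower (median -1.63). Their part in the result was not tested.

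B-cell lymphoma had the lowest mean of the members among the 7 tumour types, and 6 of 10 genes were lower, against 22.3% of genes. Emcn differed by -2.06 (SE 0.48, adjusted p 0.000313), Flt1 by -1.75 (SE 0.41, adjusted p 0.000299), Vwf by -1.74, Tek by -1.34, Esam by -1.29 and Tie1 by -0.92. Pecam1 (0.42, adjusted p 0.515), which leukocytes also carry, Eng (0.10) and Cdh5 (-0.07) did not pass. With 3 lymphomas the count was 2 without sample 1. Vegfa differed by -2.76, all 10 epithelial genes were lower and all 8 leukocyte genes were higher.

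In gastric adenocarcinoma 1 of the 10 genes was higher and 6 were lower, where 47.9% of all genes were called in either direction. Flt1 was 1.03 higher (SE 0.23, adjusted p 0.000197), and Tek (-1.41), Kdr (-0.78), Cdh5 (-0.73), Esam (-0.69), Pecam1 (-0.68) and Eng (-0.51) were lower. Tie1 did not pass (-0.21, adjusted p 0.326). Pgf, a ligand of Flt1, was higher there by 2.12 and Vegfa by 1.37. Uterine adenocarcinoma had higher Emcn (1.58, SE 0.30, adjusted p 3.29e-05) and Flt1 (1.03, SE 0.25, adjusted p 0.00122), 2 of 10 against 17.3% of genes. With the Flt1 probe set of highest variance Flt1 did not pass there (limma adjusted p 0.471). Hepatocellular carcinoma had higher Kdr (0.68, adjusted p 0.00235) and Eng (0.43, adjusted p 0.0315), 2 of 10 against 25% of genes, with 5 of 8 sinusoidal genes higher (Clec4g 3.79, Stab2 3.0). With its probe set of highest variance Eng did not pass in hepatocellular carcinoma (limma adjusted p 0.156) or in gastric adenocarcinoma (0.26). In prostatic adenocarcinoma 6 of 10 were lower, against 19.6% of genes, from -0.87 (Cdh5) to -0.52 (Tie1). Skin carcinoma had 1 lower gene, Esam (-0.61, adjusted p 0.0481), against 22.5% of genes, and it was not called without skin sample 5, whose Esam was 3.92 against a group median of 6.70, or without lymphoma sample 2 or 3.

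The 10 genes rose and fell together from array to array. Over the 117 arrays the 45 pairs had Pearson correlations from 0.54 to 0.93 (median 0.84), and from 0.59 to 0.84 (median 0.75) after each group's mean was subtracted. They were tighter in the 51 sorted samples, 0.75 to 0.97 (median 0.92), than in the 66 tumours, 0.21 to 0.85 (median 0.66). Vwf was the loosest member, with a median of 0.74 to the others over all arrays and 0.65 after subtraction. Cdh5 and Tek were the tightest over all arrays, at 0.89, and Tie1 (0.79) and Esam (0.78) after subtraction. These are descriptions: arrays of a group share a tissue and a preparation.

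Over the 117 arrays the genes outside the members most like their mean were Sox18 (r 0.959), Tmem204 (0.952), Fgd5 (0.952), Adgrl4 (0.952), Erg (0.949), Ptprb (0.941), Cldn5 (0.941), Egfl7 (0.941), She (0.928) and Adgrf5 (0.921). After subtraction of group means Sox18 was at 0.904 and Erg at 0.892. For single members the closest genes were Tmem204 for Cdh5 (0.948) and Tek (0.945), Ptprb for Kdr (0.942), She for Tie1 (0.942), Adgrf5 for Esam (0.928), Erg for Pecam1 (0.924), Robo4 for Eng (0.918), Sox18 for Emcn (0.884), Mcam for Vwf (0.863) and Adgrl4 for Flt1 (0.835).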

How the data were processed

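The deposited values are log2 signals of 45141 probe sets on 117 arrays, from 1.63 to 14.18; the submitters' processing notes name RMA, which subtracts background, normalizes between arrays and summarizes probes, and Partek 6.6. Per the labels' protocols RNA was extracted with a PicoPure kit and labelled with biotin. They were used as deposited by the authors. Of the probe sets 28898 carried 1 symbol, 551 several and 15692 none, in GEO's platform annotation with symbols updated through Entrez IDs in RefSeq's table for GRCm38.p6. The highest-mean probe set stood for each of 17097 genes. Genes above the array median in at least 3 arrays of a fit were tested, 14081 in sorted cells, 14663 in all samples and 13456 in tumours, and all 10 members passed each filter. Counts among those passing are therefore of all members.

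limma 3.58.1 in R 4.3.3 fitted group means, with contrasts, moderated t or F tests (eBayes), two-sided, and Benjamini-Hochberg adjustment over all genes tested at 0.05. All groups of a fit shared 1 spread. The test of variation between organs was added after values were seen. The members and gene lists were chosen with earlier results of these data known. Named list genes are up to 4 called members of a list with the largest differences, plus Vegfa, Pgf, Angpt1, Angpt2, Ptprb, Acvrl1, Nrp1 and Flt4. Tests were also tried on simulated data. The number of arrays limits the precision. Whether samples with equal title numbers deviate together was checked: 7 of 19 pairs correlated above 0.1 (median -0.03), so the numbers were not used as pairs. Of pairs of neighbouring sample codes in a tissue 10 of 13 did (median 0.32), not all, so this block is an alternative. Alternatives were other probe sets, filters, normalization, blocks, references and left-out samples.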

Additional observations from a re-analysis of the deposited data

Results flagged for a closer look

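In groups of 4 to 10 samples the highest or lowest sample was set against the rest, for each member and for their mean. Of 110 groups of values 27 had a sample far from the others. For a single group of values chance gives about 1 in 20. Members share arrays and move together, so the 110 are not independent, and 27 cannot be set against that rate. The 27 were not spread evenly: Prom1-negative lung sample 7 stood apart for all 10 members. That sample was low for Pecam1 (6.54), Cdh5 (6.09), Kdr (6.57), Flt1 (7.15), Tek (6.92), Tie1 (3.94), Emcn (5.47), Vwf (7.62), Eng (6.33), Esam (5.95) and their mean (6.26). Its leukocyte-list mean was 11.72, the highest of the 7, and its epithelial-list mean 5.92, the lowest. Prom1-negative prostate sample 1 was low for Cdh5 (3.68), Kdr (5.94), Flt1 (4.41), Tek (6.93), Vwf (3.18), Esam (4.94) and the mean (5.05). Skin carcinoma sample 5 was low for Kdr (5.01), Vwf (4.59) and Esam (3.92). Prom1-positive liver sample 2 was high for Pecam1 (8.95) and Flt1 (9.04). Prom1-positive uterus sample 4 was high for Pecam1 (5.97), Tie1 (4.43) and the mean (6.43), and uterine adenocarcinoma sample 9 was high for Eng (8.20).

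The difference between Prom1-positive and Prom1-negative cells varied between tissues for Tek (adjusted p 0.00646), Flt1 (0.0364) and Cdh5 (0.0453), by limma's moderated F test with Benjamini-Hochberg adjustment. Tek differed by -4.08 in prostate and by -0.08 in lung, and all 3 Prom1-positive prostate samples were below all 5 negative ones. The difference between tumours and sorted normal cells varied between organs for every member by the same limma test, from an adjusted p of 7.62e-16 (Eng) through 4.69e-14 (Kdr), 2.46e-13 (Cdh5), 5.96e-13 (Flt1), 1.56e-09 (Tek), 1.55e-08 (Emcn), 2.2e-08 (Pecam1), 5.27e-08 (Tie1) and 5.31e-05 (Vwf) to 0.00014 (Esam). Eng differed by 1.51 in stomach and by -2.89 in lung.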

How the results depend on the processing

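With single samples left out, the members called in the sort comparison ranged from 1 to 10 in liver, 1 to 7 in prostate, 1 to 8 for the mean of 6 tissues and 1 to 9 for variation between tissues, and stayed at 0 in the other 4 tissues. Ranges were 0 to 3 for normal prostate, 0 to 2 for normal uterus and 0 to 1 for prostate tumours. They were 1 to 4 for uterine tumours against normal, 2 to 6 for lymphoma and 0 to 1 for skin carcinoma. All other counts stayed within 1.5 times. Samples were left out only from groups of 5 or fewer, besides lung sample 7, skin sample 5 and uterine tumour 6. No Prom1-negative liver sample was left out, and no bronchial, liver, gastric or prostatic tumour. Treating equal title numbers as a replicate block, although the numbers did not pair the samples, gave 2 members in prostate, 1 in uterus and 1 for variation between tissues. Blocking neighbouring sample codes gave 9 in prostate, 2 in uterus, 8 for the mean and 7 for variation between tissues. Fits of 1 tissue gave 3 in liver and 3 in uterus (4 members were tested in intestine and 8 in stomach), and prostate tumours gave 2. A fit over 117 samples, or dropping the 6 arrays whose upper quartile was under 6, gave 5 for the mean and 7 for variation. Repeated quantile normalization gave 3 in liver, 1 for variation, 2 for normal prostate, 3 for normal uterus, 1 for prostate tumours and 0 for skin carcinoma, as did no filter for the last (0). Prom1-negative cells alone gave 2 for normal prostate, with Tek at 1.61. As the reference they gave 4 for prostate tumours, 1 for uterine tumours and Emcn at -0.16 over organs. Prom1-positive cells as the reference gave 1 for prostate tumours, 4 for liver tumours, 4 over organs, Emcn at 0.14 in liver and Cdh5 at 0.071 over organs. The probe set of highest variance gave 1 for hepatocellular carcinoma, 1 for uterine adenocarcinoma, 1 for normal uterus and Flt1 at -0.31 over organs, and the mean of probe sets gave 1 for hepatocellular carcinoma and 1 for normal uterus. The causes were not tested. Shares of all genes were worked out for the main fits only, so these counts stand without them. Robust, trended variance moved no count past 1.5 times. Omitting lung sample 7, skin sample 5 or uterine tumour 6 was chosen after seeing the data. Levels near the array median limit intestine and, for some members, stomach.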
